A study of Mus musculus with 24 samples.

Results

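The claudins are a family of tight junction membrane proteins, and 10 of their genes that are known from the crypt or the surface of the intestinal epithelium were followed across intestinal Apc loss: Cldn1, Cldn2, Cldn3, Cldn4, Cldn7, Cldn8, Cldn10, Cldn12, Cldn15 and Cldn23. They are 10 of the 15427 genes measured on the Affymetrix MOE430_2 array, and every probe set annotated to 1 of these symbols was taken, 16 in all. Cldn3 has 4 probe sets, Cldn1, Cldn2 and Cldn12 have 2 each, and the others have 1. The values below are those of a gene's brightest probe set unless another is named.

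Tissue was compared in 8 groups of 3 arrays. Small intestine was taken from AhCre-positive mice whose Apc alleles are flanked by loxP sites (Apcfl/fl), and from wild-type controls that also carry AhCre, and was collected on day 3, 4 or 5 after induction. All of these mice, wild type included, received β-naphthoflavone (80 mg/kg, injected 3 times in a day), the agent that switches on the Cyp1a1 promoter of the AhCre transgene, so that recombination takes place in cells that respond to it and the wild-type mice carry both the transgene and the drug. Colonic polyps, pooled from 1 mouse per array, were compared with normal colonic mucosa of mice that carry the ApcMin allele, a truncating germline mutation of Apc that both colonic groups share. The study describes the polyp and normal tissue as paired, but no animal appears on both sides in the labels, so the groups were compared unpaired. The labels call the normal colon samples and 2 of the 3 polyp samples untreated and do not state the treatment of the polyp sample numbered 1. The mice with and without loxP-flanked Apc were kept on an outbred background, ages are not given, and the tissue was not dissociated, so that all cell types contribute RNA.

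Claudins span the cell membrane and bind each other across the gap between neighbouring epithelial cells, and the mixture of claudins in the strand sets which ions pass between the cells. Some form pores: claudin-2 conducts cations and water and is found in the crypts of the adult intestine, claudin-15 conducts sodium and returns it to the lumen for sugar uptake by the sodium-glucose cotransporter Slc5a1, and claudin-10 forms cation or anion pores according to its isoform. Others seal the junction, among them claudin-1, claudin-3, claudin-4, claudin-7 and claudin-8. Tight junctions are tied to the actin cytoskeleton by scaffold proteins such as ZO-1 (Tjp1), and other membrane proteins, such as occludin and the angulins (Lsr, Ildr1), share the strand or the corners between cells.

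The promoters of Cldn2, Cldn4 and Cldn15 are printed because these genes passed the test in the same direction in Apcfl/fl mice on at least 1 day and in polyps. RefSeq (GRCm38.p6) gave promoter sequence, 250 bases before to 50 bases after a transcription start, for 8 of the 10 genes in 12 windows, with no entry used for Cldn8 and Cldn23. The Cldn2 window is chrX:139800558-139800857 on the plus strand, that of Cldn4 chr5:134946885-134947184 on the minus strand and that of Cldn15 chr5:136967619-136967918 on the plus strand. Capitals mark any match to 5 short motifs, each searched on both strands. They were CTTTGA, bound by the Tcf and Lef factors of the Wnt pathway, then GTTAAT, which is part of the site of Hnf1 factors, and also AGATAA, read by GATA factors. The remaining searches were for CAGGTG, an E-box bound by Snail factors among others, and for the TATA box, spelled TATAAA.
Cldn2: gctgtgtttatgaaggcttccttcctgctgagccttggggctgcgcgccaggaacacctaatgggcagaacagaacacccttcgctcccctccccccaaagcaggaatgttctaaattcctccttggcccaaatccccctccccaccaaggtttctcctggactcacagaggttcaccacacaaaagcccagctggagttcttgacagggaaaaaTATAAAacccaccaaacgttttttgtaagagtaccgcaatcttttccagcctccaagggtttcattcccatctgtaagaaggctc
Cldn4: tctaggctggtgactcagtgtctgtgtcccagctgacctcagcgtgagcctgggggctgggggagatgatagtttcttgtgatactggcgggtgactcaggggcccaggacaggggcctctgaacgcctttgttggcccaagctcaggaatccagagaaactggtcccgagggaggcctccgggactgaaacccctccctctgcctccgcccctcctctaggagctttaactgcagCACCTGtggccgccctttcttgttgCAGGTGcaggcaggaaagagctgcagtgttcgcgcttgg
Cldn15: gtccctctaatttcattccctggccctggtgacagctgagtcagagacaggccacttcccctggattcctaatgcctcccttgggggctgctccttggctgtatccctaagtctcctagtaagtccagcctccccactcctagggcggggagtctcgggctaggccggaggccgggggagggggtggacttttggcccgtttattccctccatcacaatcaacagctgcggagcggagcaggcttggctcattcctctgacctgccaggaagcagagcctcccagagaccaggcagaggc
The Cldn2 window held 1 match, TATAAA starting 35 bases before the start site, which 13.6% of the 32851 promoter windows of this length also hold. The Cldn4 window held 2 E-boxes, at 14 bases before the start on the minus strand and at base 12 after it on the plus strand, and 20.2% of all windows hold at least 1. The Cldn15 window held none of the 5. None of the 12 claudin windows held CTTTGA, which 16% of all windows hold. A GTTAAT match stood 241 bases before the start of Cldn1 and another 15 bases before the first of the 2 Cldn10 starts (7.1% of all windows). The same Cldn10 window also held AGATAA (11.2%), and E-boxes stood in Cldn3 and in the second Cldn7 window. The GC content was 51.3% for Cldn2, 61% for Cldn4 and 61% for Cldn15, against a median of 52.7% over all windows. These matches describe letters only.

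The signal used below was recovered from the deposited standardized scores, every array was brought to the same geometric mean, 100, and differences are in log2(scaled signal + 16), a scale that understates changes of dim genes. A gene was called when its limma p, adjusted over 35066 probe sets, was under 0.05. Signals of different genes come from different probes and were not set against each other. Correlations between arrays of 1 group ran from 0.923 to 0.976. At day 3 the brightest of 4 Apc probe sets gave 339 to 448 in Apcfl/fl mice, against 400 to 582 in wild-type mice, which was not called, and at day 5 it was called higher (0.62, adjusted p = 0.0282). Of the other Apc probe sets, 1 was called lower at day 3 (-1.18, adjusted p = 0.0274) and another higher at days 3 and 5 (1.06 and 1.27, adjusted p = 0.0206 and 0.00388) and in polyps (0.96, adjusted p = 0.0201). Since it is not known here whether these probes lie in the deleted exon, they do not check the labels. Crypt and Wnt target genes, a list that includes Axin2 and Lgr5, were called higher in Apcfl/fl mice for 13, 14 and 15 of 15 measured members at days 3, 4 and 5. None of the 12 epithelial marker genes, among them Epcam, Cdh1 and Krt8, was dim (under 50) on every array. Exocrine pancreas transcripts (Cela1, Cela2a, Cela3b and Ctrb1, summed) were at 25510 on Apcfl/fl day 4 replicate 2 and 23100 on wild-type day 5 replicate 3 but at 215 to 606 on the other small intestinal arrays, so counts for these days are also given without these 2 arrays. Animal names in the small intestinal labels differ in kind between days. At day 4 the wild-type animals carry names of a kind found in no other group, and the Apcfl/fl arrays carry only numbers. Any difference this marks cannot be told apart from day, or from genotype at day 4. The 3'/5' signal ratio of Gapdh, a sign of RNA quality, did not overlap between the genotypes at day 4 (0.797 to 0.827 in Apcfl/fl mice, against 0.745 to 0.763 in wild-type mice) or day 5 (0.831 to 0.963, against 0.776 to 0.803 in wild-type mice), and its part in the results was not tested. The same ratio was 0.771 to 0.796 in polyps and 0.806 to 1.15 in normal colon. Gapdh ranges did overlap on day 3 (Apcfl/fl 0.879 to 1.08, wild type 0.906 to 1.29). For Actb (beta-actin), by contrast, the 3'/5' ratio overlapped in all of these comparisons. Actb spanned 1.13 to 1.21 (Apcfl/fl) and 1.16 to 1.17 (wild type) on day 4. The day 5 spans were 1.15 to 1.41 (Apcfl/fl) and 1.16 to 1.21 (wild type). Polyps gave 1.05 to 1.15 for Actb and normal colon 1.04 to 1.27.

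Apc loss in the small intestine was accompanied by higher Cldn2 and Cldn12 and lower Cldn15. At day 3, 1 of 10 claudins was higher (Cldn2) and 1 lower (Cldn23), where 10.8% of all genes were called higher and 7.35% lower. At day 4, 2 were higher (Cldn2 and Cldn12) and 1 lower (Cldn15), against 14.9% and 9.86% of all genes. At day 5, 3 were higher (Cldn2, Cldn4 and Cldn12) and 2 lower (Cldn10 and Cldn15), against 20.5% and 12.9% of all genes. Averaged over the 3 days, 2 were higher (Cldn2 and Cldn12) and 3 lower (Cldn10, Cldn15 and Cldn23), against 29.2% and 24.5% of all genes. These shares of 10 genes lie near the background of all genes and are no result about the claudins as a set, so that what follows concerns single genes. The median log2 difference of the claudins was -0.27, 0.07 and 0.17 at days 3, 4 and 5, and that of all genes 0.01, 0.03 and 0.02. Without the 2 arrays that carry pancreatic transcripts, day 4 had 0 claudins called by limma, day 5 had 4, and the averaged days had 5. The day 4 calls were the least firm: leaving out any 1 of the 6 arrays of that day left 0 or 1 of the 3.

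In the polyps 2 of 10 claudins were higher than in normal colon (Cldn2 and Cldn4) and 3 lower (Cldn1, Cldn8 and Cldn15), where 7.45% of all genes were called higher and 9.11% lower. The median log2 difference was -0.64 over the claudins and -0.02 over all genes. Of 12 genes of the epithelium in general, 0 were called higher, 5 lower and 7 neither in polyps (median log2 difference -0.80), and their summed signal was 28820 to 43530 in polyps and 52900 to 70460 in normal colon. Smooth muscle genes were called lower for 8 of 8 (summed signal 1832 to 4111 in polyps and 12270 to 17330 in normal colon, with 3 of the 8 dim on every polyp array), colonic surface cell genes for 9 of 12 (6207 to 8035 in polyps and 33880 to 46900 in normal colon) and goblet cell genes for 6 of 6, while crypt and Wnt target genes were called higher for 13 of 15. Macrophage and neutrophil genes were called higher for 5 of 8 and lower for 0 (summed signal 9333 to 14560 in polyps and 3545 to 4547 in normal colon). Of 8 fibroblast genes, 3 were called higher and 2 lower. The part of this difference in tissue make-up in the claudin values was not tested. In whole tissue, fewer cells of a type and less RNA per cell cannot be told apart.

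Cldn2 was the claudin called in every comparison of Apc-deficient with control tissue. Its scaled signal at day 3 was 1260, 2638 and 1705 in Apcfl/fl mice, against 459, 545 and 1164 in wild-type mice. The day 4 values were 2764, 2823 and 2740 in Apcfl/fl mice, against 1227, 761 and 1857 in wild-type mice. The day 5 values were 3870, 3747 and 4047 in Apcfl/fl mice, against 568, 1911 and 1748 in wild-type mice. Within each day, all 3 Apcfl/fl arrays lay above all 3 wild-type arrays, and the Apcfl/fl arrays of days 4 and 5 lay closer together than the wild-type arrays did. The Apcfl/fl arrays of day 4 carry only numbers, so the spread between them may be technical. This also bears on the day 4 and averaged p-values below. The log2 difference was 1.40 ± 0.42 (SE) at day 3 (adjusted p = 0.0264, limma), 1.2 ± 0.42 at day 4 (adjusted p = 0.0468) and 1.63 ± 0.42 at day 5 (adjusted p = 0.00666). The mean over days was 1.41 ± 0.24 (adjusted p = 0.000108), a 2.66-fold increase, and an exact permutation of genotypes within days gave p = 0.00025, the smallest that 8000 relabellings allow. The second Cldn2 probe set was called on each day too, with a mean of 1.40 ± 0.21 (adjusted p = 3.77e-05). Crypt and Wnt target genes rose on the same days, with a summed signal at day 5 of 18190 to 19800 in Apcfl/fl mice and 6182 to 7006 in wild-type mice, and their part in the Cldn2 values was not tested.

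In the polyps Cldn2 had 2279, 1986 and 1982, against 1119, 1207 and 1017 in normal colon. The groups did not overlap, and the log2 difference was 0.89 ± 0.21 (adjusted p = 0.0198, limma). The second probe set had 1161, 1157 and 963 in polyps, against 257, 357 and 417 in normal colon, also without overlap (1.65 ± 0.24, adjusted p = 0.00187). The single-day and polyp calls of the brightest probe set depended on single arrays. At day 3 the call was lost without Apcfl/fl replicate 2 or 3 (adjusted p = 0.12 and 0.0572) or without wild-type replicate 1 or 2 (0.0932 and 0.102). At day 4 it was lost without any array except wild-type replicate 3 (adjusted p from 0.0913 to 0.2), and at day 5 without wild-type replicate 1 (0.052). In polyps it was lost without polyp replicate 1 (0.1) or normal colon replicate 3 (0.0723), whereas the mean over days kept its call without each array in turn. On the deposited scores Cldn2 was not called on any single day (adjusted p from 0.0501 to 0.198) or in polyps (0.0672). The day 4 call was also lost with quantile normalization (0.0774), the day 3 call with array weights (0.1), and the polyp call when all 24 arrays shared the fit (0.103).

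**Figure D1:**
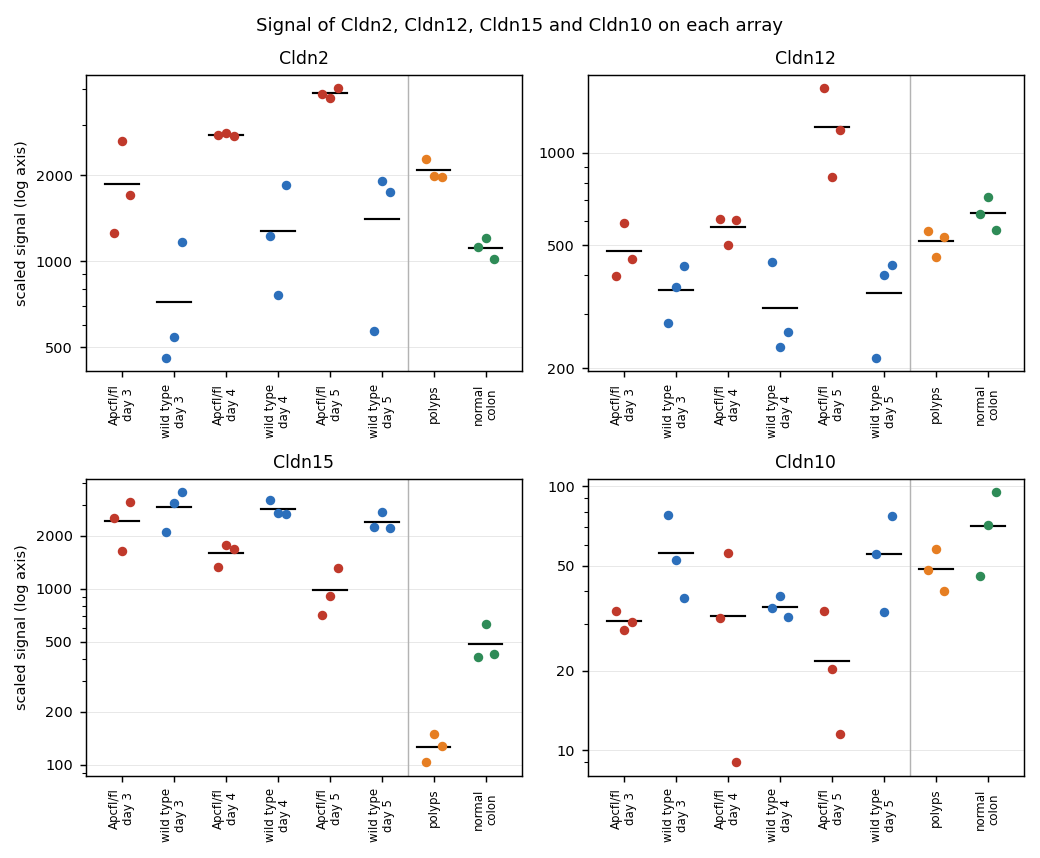
Scaled signal (log axis) of Cldn2, Cldn12, Cldn15 and Cldn10 on each of the 24 arrays, 3 points a group with a bar at the mean, small intestinal groups left of the grey line. Cldn2 lay higher in Apcfl/fl than in wild-type mice on each day (3747 to 4047 against 568 to 1911 at day 5), and Cldn15 was lowest in the polyps (104 to 150).

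Cldn12, which unlike most claudins lacks the motif that binds scaffold proteins and has been linked to calcium permeability, rose at the later days. Its signal at day 3 was 398, 593 and 452 in Apcfl/fl mice, against 280, 367 and 429 in wild-type mice, and the groups overlapped. Day 4 gave 611, 500.1 and 606 in Apcfl/fl mice, against 443, 235 and 262 in wild-type mice. Day 5 gave 1622, 831 and 1184 in Apcfl/fl mice, against 216, 401 and 432 in wild-type mice. Days 4 and 5 showed no overlap. The log2 difference was 0.41 ± 0.30 (SE) at day 3 (adjusted p = 0.363, limma), 0.89 ± 0.30 at day 4 (adjusted p = 0.0407) and 1.75 ± 0.30 at day 5 (adjusted p = 0.000377). Averaged over days it was 1.02 ± 0.17 (adjusted p = 0.000103; exact permutation p = 0.0005). The second probe set gave 0.76 ± 0.22 at day 3 (adjusted p = 0.0234), 0.60 ± 0.22 at day 4 (adjusted p = 0.0578) and 1.45 ± 0.22 at day 5 (adjusted p = 0.000171), so that the probe sets differ in which of the earlier days passed. The day 4 call of the brightest probe set was lost without Apcfl/fl replicate 1, 2 or 3 or wild-type replicate 2 or 3 (adjusted p from 0.0616 to 0.157), and with quantile normalization (0.131) or on the deposited scores (0.122). In polyps Cldn12 had 555, 458 and 533, against 631, 718 and 562 in normal colon, a difference of -0.30 ± 0.22 that was not called (adjusted p = 0.406). The second probe set had the other sign in polyps and was not called either (0.19 ± 0.22, adjusted p = 0.602).

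Cldn15 was lower in both models. At day 3 it had 2511, 1644 and 3109 in Apcfl/fl mice, against 2100, 3065 and 3536 in wild-type mice, and the groups overlapped. At day 4 it had 1326, 1771 and 1695 in Apcfl/fl mice, against 3181, 2682 and 2661 in wild-type mice. At day 5 it had 710, 916 and 1313 in Apcfl/fl mice, against 2248, 2725 and 2229 in wild-type mice. On both later days each Apcfl/fl array lay below each wild-type array. The log2 difference was -0.27 ± 0.27 (SE) at day 3 (adjusted p = 0.508, limma), -0.83 ± 0.27 at day 4 (adjusted p = 0.0326), -1.32 ± 0.27 at day 5 (adjusted p = 0.00132) and -0.81 ± 0.15 when the days were averaged (adjusted p = 0.000297; exact permutation p = 0.0015). Leaving out any 1 of the 6 arrays of day 4 lost the call of that day (adjusted p from 0.0528 to 0.129), whereas the day 5 call and that of the averaged days were kept without each array in turn. Genes of villus enterocytes moved over the same days, with 0, 3 and 9 of 15 called lower at days 3, 4 and 5 and a summed signal at day 5 of 20240 to 52030 in Apcfl/fl mice and 53100 to 63810 in wild-type mice, and their part in the Cldn15 values was not tested.

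In the colon Cldn15 had 104, 150 and 127 in polyps, against 408, 630 and 426 in normal colon. Every polyp lay well below every normal array, and the log2 difference was -1.80 ± 0.25 (adjusted p = 0.00133, limma), which is 3.49-fold lower. The polyp difference lay below the mean Apc effect of the small intestine by a further -0.996 ± 0.30 (adjusted p = 0.0276), a call that was lost without polyp replicate 1 (0.0971) or normal colon replicate 2 (0.115), with an offset of 64 (0.0599), without the arrays of day 4 (0.0729) or without the 2 arrays with pancreatic transcripts (0.0544).

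Cldn10 was dim, with 9.02 to 95 over all arrays and above 50 on 8 of 24, and no detection calls are in the values, so its levels may lie near background. Its signal at day 5 was 33.8, 20.3 and 11.5 in Apcfl/fl mice, against 55.3, 33.4 and 77.1 in wild-type mice, which overlapped by 1 array. The log2 difference was -0.91 ± 0.33 (SE, adjusted p = 0.0422, limma) at day 5 and -0.57 ± 0.19 when averaged over days (adjusted p = 0.018; exact permutation p = 0.016). The day 5 call was lost without Apcfl/fl replicate 2 or 3 (adjusted p = 0.0841 and 0.167) or wild-type replicate 1 or 3 (0.105 and 0.169), the last of which carries pancreatic transcripts, and with quantile normalization (0.0959), other offsets or array weights. The averaged difference was lost with quantile normalization (0.0603). In polyps it had 48.1, 57.8 and 40.3, against 45.9, 71.5 and 95 in normal colon, and was not called (-0.39 ± 0.26, adjusted p = 0.36).

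**Figure D2:**
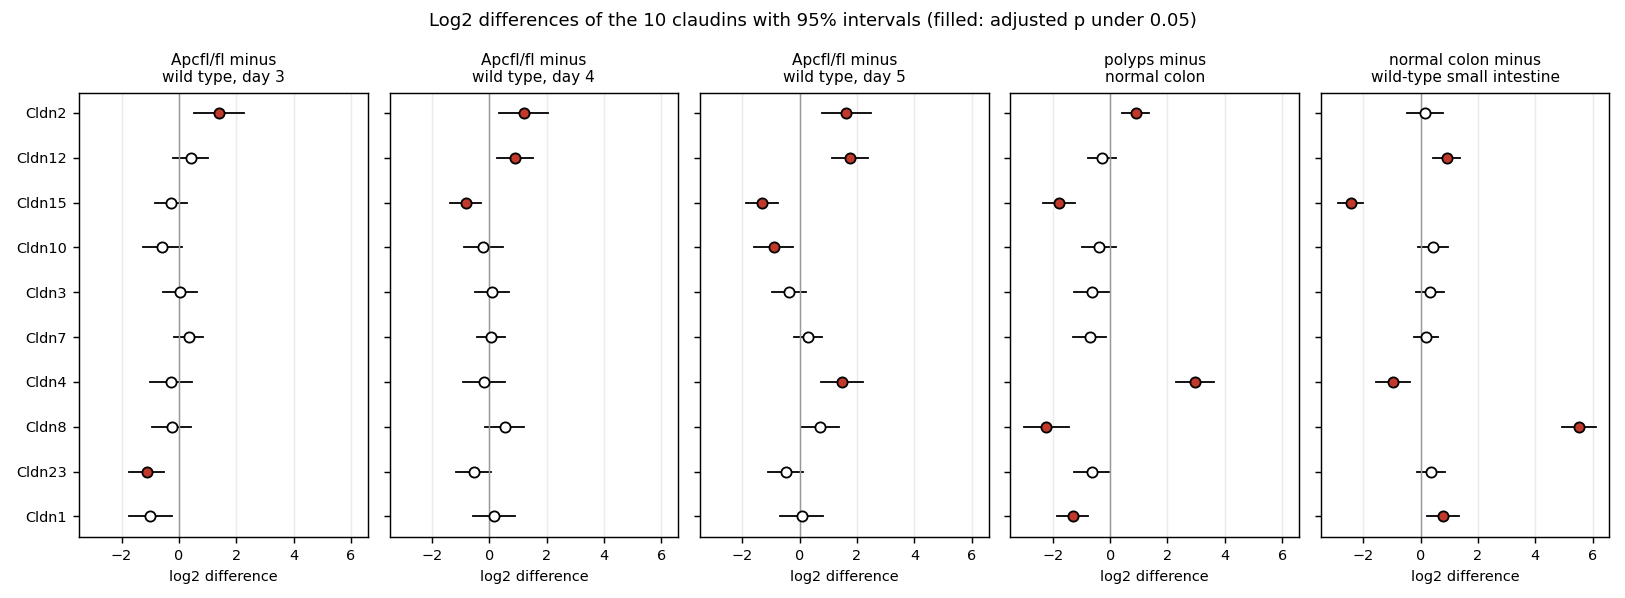
Log2 differences of the 10 claudins (points) with 95% intervals (lines) in 5 comparisons that share the horizontal axis, filled where the adjusted p was under 0.05. Cldn2 stood above 0 in the 4 comparisons with Apc-deficient tissue, Cldn4 reached 2.95 in polyps, and Cldn8 differed by 5.54 between normal colon and wild-type small intestine.

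Among the sealing claudins, Cldn3 and Cldn7 were called in neither model. Cldn3, which is abundant in the gut and binds the enterotoxin of Clostridium perfringens as claudin-4 does, had 1291 to 3475 over the 9 Apcfl/fl arrays and 2005 to 3259 over the 9 wild-type arrays. Its mean log2 difference was -0.10 ± 0.16 (SE, 95% interval -0.44 to 0.25), and its other 3 probe sets gave -0.03, -0.03 and -0.08. At day 5 the Apcfl/fl arrays were spread the most, at 1291, 3475 and 1702, against 2067, 3166 and 2646 in wild-type mice. The day 5 difference of -0.39 ± 0.28 (adjusted p = 0.316, limma) became a call without Apcfl/fl replicate 2 (-0.80, adjusted p = 0.0211) and also with quantile normalization (-0.83, adjusted p = 0.0201) and on the deposited scores (-0.95, adjusted p = 0.0143). In polyps Cldn3 had 2087, 1528 and 2998, against 3217, 3982 and 2808 in normal colon, a difference of -0.63 ± 0.28 that was not called (adjusted p = 0.168). It was called with array weights (-0.67, adjusted p = 0.0268). The other 3 probe sets gave -0.64, -0.69 and -0.49 in polyps and were not called (adjusted p from 0.123 to 0.309).

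Cldn7, which lies in the tight junction and along the basolateral membrane and whose loss in mice damages the intestinal lining, was bright on every array, at 4381 to 7156 over the Apcfl/fl arrays and 3490 to 6713 over the wild-type arrays. The mean log2 difference was 0.22 ± 0.14 (95% interval -0.06 to 0.51, adjusted p = 0.183, limma; exact permutation p = 0.0887). In polyps it had 3269, 2726 and 4396, against 6976, 5642 and 4468 in normal colon. Each polyp lay below each normal array, although the closest pair nearly met, and the difference of -0.72 ± 0.27 was not called (adjusted p = 0.0997). It was called when all 24 arrays shared the fit (adjusted p = 0.0413), with array weights (0.0162) and with an offset of 64 (0.0446). The genes of the epithelium in general had a median of -0.80, and their part in the Cldn7 values was not tested.

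Cldn4, a sealing claudin and the other receptor of that enterotoxin, showed the largest increase of the 10 in polyps, and in the small intestine a difference at day 5 alone. Polyps had 2109, 1284 and 2279, against 157, 261 and 268 in normal colon. The lowest polyp stood well above the highest normal array, and the log2 difference was 2.95 ± 0.30 (SE, adjusted p = 0.000227, limma), a 7.75-fold increase, and was 2.72 (adjusted p = 0.000759) without normal colon replicate 1, whose label carries another prefix. At day 3 Cldn4 had 441, 495 and 454 in Apcfl/fl mice, against 581, 572 and 541 in wild-type mice, a difference of -0.28 ± 0.34 without overlap that was not called (adjusted p = 0.614). Day 4 gave 373, 319 and 388 in Apcfl/fl mice, against 625, 293 and 376 in wild-type mice, and the groups overlapped. At day 5 it had 719, 861 and 2125 in Apcfl/fl mice, against 414, 247 and 555 in wild-type mice. Only on that day did the Apcfl/fl arrays stand above the wild-type ones, by 1.47 ± 0.34 (adjusted p = 0.0037), and replicate 3 carried much of the mean although the call was kept without it. Of the other cell types, goblet cell genes were lower for 5 of 6 and lymphocyte genes for 5 of 7 at day 5, and Paneth cell genes were higher for 4 of 5, and their part in the Cldn4 values was not tested. The day 5 effect exceeded that of day 3 by 1.75 ± 0.48, which did not pass the adjusted test (adjusted p = 0.0911).

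Cldn8, which tightens the distal colon against ions and pairs with claudin-4 in the kidney, separated the tissues more than any other member. Normal colon had 1744, 793 and 734, against values from 3.68 to 9.29 on the 9 wild-type small intestinal arrays, which are dim. The log2 difference of 5.54 ± 0.28 (SE, adjusted p = 3.55e-13, limma) rests on small intestinal signals that may be background, so that its size is not well determined. Polyps had 160, 176 and 289 and thus lay between, without overlap with normal colon. The difference of polyps from normal colon was -2.23 ± 0.36 (adjusted p = 0.00275), a 4.70-fold decrease, and -1.84 (adjusted p = 0.00445) without normal colon replicate 1, the brightest of the 3. In Apcfl/fl mice Cldn8 stayed at 2.07 to 33.2 and passed on no day, with a mean difference of 0.33 ± 0.18 (adjusted p = 0.151). Without Apcfl/fl day 5 replicate 2 its day 5 difference was called (1.13, adjusted p = 0.00814, against 0.70 with all arrays), at signals under 50.

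Cldn23, a claudin of the differentiated colonic surface, was lower in Apcfl/fl mice at day 3 and averaged over days. At day 3 it had 235, 179 and 177 in Apcfl/fl mice, against 361, 385 and 640 in wild-type mice. The next day gave 246, 208 and 186 in Apcfl/fl mice, against 421, 270 and 280.1 in wild-type mice. At day 5 it had 134, 164 and 353 in Apcfl/fl mice, against 279, 307 and 276 in wild-type mice. The groups overlapped at day 5 only, through Apcfl/fl replicate 3. The log2 difference was -1.13 ± 0.29 (SE, adjusted p = 0.0128, limma) at day 3, -0.55 ± 0.29 (adjusted p = 0.184) at day 4, -0.49 ± 0.29 (adjusted p = 0.215) at day 5 and -0.72 ± 0.17 (adjusted p = 0.00167; exact permutation p = 0.0025) for the mean. The day 3 call was lost without wild-type replicate 3 (adjusted p = 0.052), and a day 5 call appeared without Apcfl/fl replicate 3 (-0.88, adjusted p = 0.0224) or with quantile normalization (-0.72, adjusted p = 0.0402), which also called day 4 (-0.74, adjusted p = 0.0457). In polyps it had 250, 214 and 419, against 408, 517 and 427 in normal colon, and was not called (-0.64 ± 0.28, adjusted p = 0.154) unless polyp replicate 3 was left out (-0.91, adjusted p = 0.0336) or arrays were weighted (-0.82, adjusted p = 0.00853).

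Cldn1, the claudin without which the skin of mice cannot hold water, was at or near background: its signal passed 50 on 1 of 24 arrays. In polyps it had 5.44, 4.43 and 11, against 28.4, 46.6 and 48.6 in normal colon, and the difference of -1.31 ± 0.24 was called (adjusted p = 0.0062, limma). The second Cldn1 probe set did not show it (0.14 ± 0.23, adjusted p = 0.746), and the mean of both was not called (-0.59, adjusted p = 0.0826). In the small intestine the day 3 values were 5.10, 16.1 and 5.22 in Apcfl/fl mice, against 70.7, 38.4 and 8.64 in wild-type mice, a difference of -1.01 ± 0.36 that was not called (adjusted p = 0.0586) unless wild-type replicate 3 was left out (-1.50, adjusted p = 0.00416). Days 4 and 5 gave differences of 0.16 and 0.06. The second probe set showed no day 3 decrease (0.003 ± 0.37, limma adjusted p = 0.997).

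**Figure D3:**
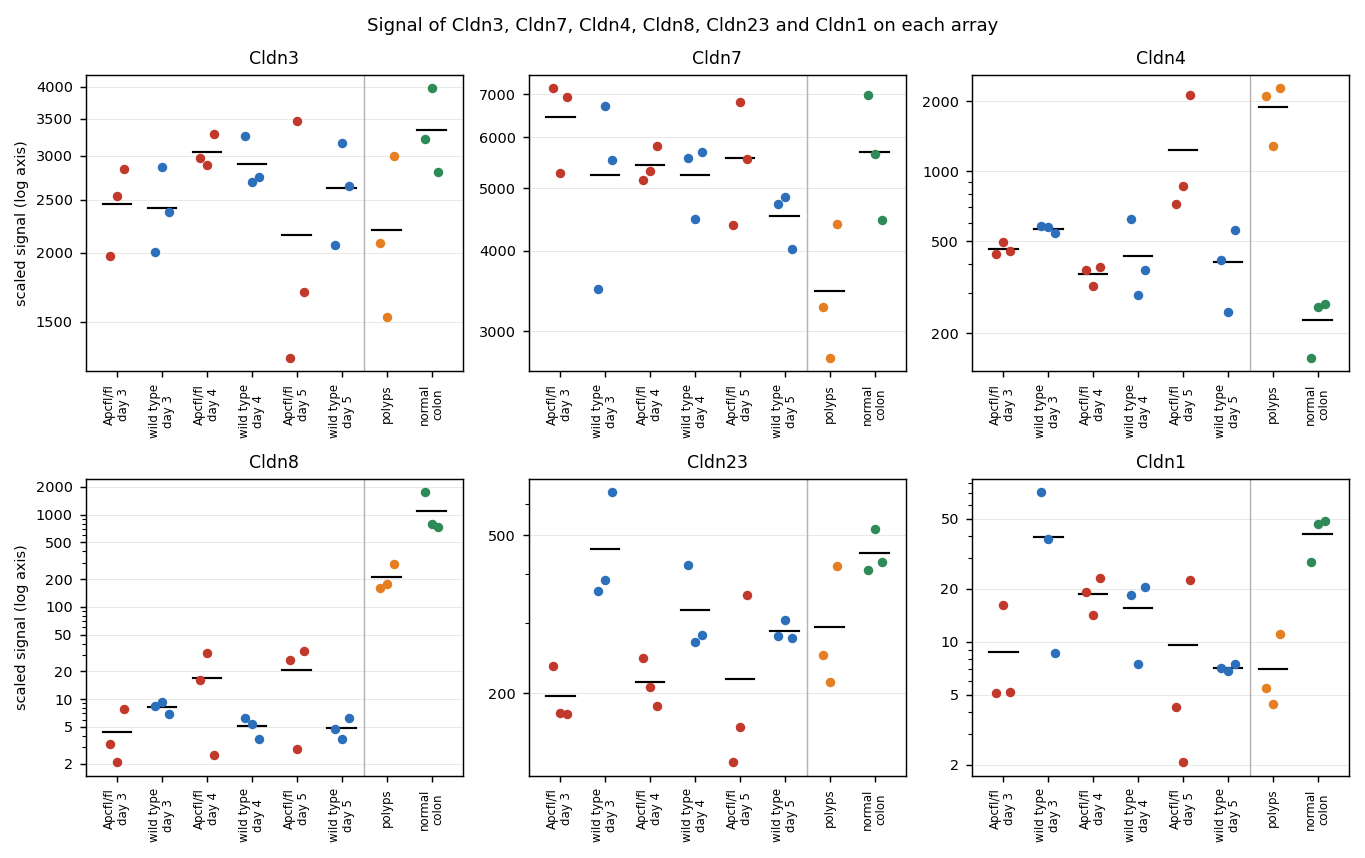
Scaled signal (log axis, a separate range in each panel) of Cldn3, Cldn7, Cldn4, Cldn8, Cldn23 and Cldn1 on each array, 3 points a group with a bar at the mean, small intestinal groups left of the grey line. The polyps exceeded normal colon for Cldn4 (1284 to 2279 against 157 to 268) and lay below it for Cldn8 (160 to 289 against 734 to 1744).

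Whether the effect of Apc loss differed between days was tested as an interaction of genotype and day. None of the 10 claudins passed the limma test for day 4 minus day 3 (0.0389% of all genes called), day 5 minus day 4 (0.0259%) or day 5 minus day 3 (0.791%). Beside Cldn4, the day 5 minus day 3 differences of largest size were 1.34 ± 0.42 for Cldn12 (adjusted p = 0.122), 1.07 ± 0.50 for Cldn1 (0.307), 0.96 ± 0.45 for Cldn8 (0.304) and -1.04 ± 0.37 for Cldn15 (0.177). A change of effect over the days is therefore not shown for any single claudin. For Cldn2 the interval of this difference was wide, from -0.998 to 1.46.

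The polyp difference was then set against the mean Apc effect of the small intestine, a test that does not share arrays between its sides. It was called for 5 of 10 claudins, against 18% of all genes. Cldn4 was further up in polyps by 2.62 ± 0.40 (SE, adjusted p = 8.34e-05, limma). Cldn8 was further down by -2.56 ± 0.40 (adjusted p = 0.000127), Cldn12 by -1.31 ± 0.32 (adjusted p = 0.00715), Cldn15 by -0.996 ± 0.30 (adjusted p = 0.0276) and Cldn7 by -0.94 ± 0.28 (adjusted p = 0.0262). Small intestinal Cldn8 was dim, at 2.07 to 33.2 in Apcfl/fl mice and 3.68 to 9.29 in wild-type mice. A decrease could hardly have been seen there, so the Cldn8 value does not compare the 2 sides. For Cldn12 the test sets a polyp value of -0.30 against a small intestinal one of 1.02. Its second probe set was called too (-0.75 ± 0.24, adjusted p = 0.0381), with 0.19 in polyps and 0.94 in the small intestine. The sign in polyps thus differs between the probe sets, and neither polyp difference was called. The Cldn7 difference was lost with quantile normalization (-0.14, adjusted p = 0.653) and on the deposited scores (-0.50, adjusted p = 0.281), without the arrays of day 4 (0.0549), and without polyp replicate 1 or 2 or normal colon replicate 1 or 2 (adjusted p from 0.0612 to 0.11). For Cldn2 no difference was called (-0.52 ± 0.44, 95% interval -1.42 to 0.39). Of 12 genes of the epithelium in general, 10 were called lower in this comparison (median -1.01), and their part was not tested. Tissue, model, treatment and time differ together between the 2 sides and cannot be told apart.

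**Figure D4:**
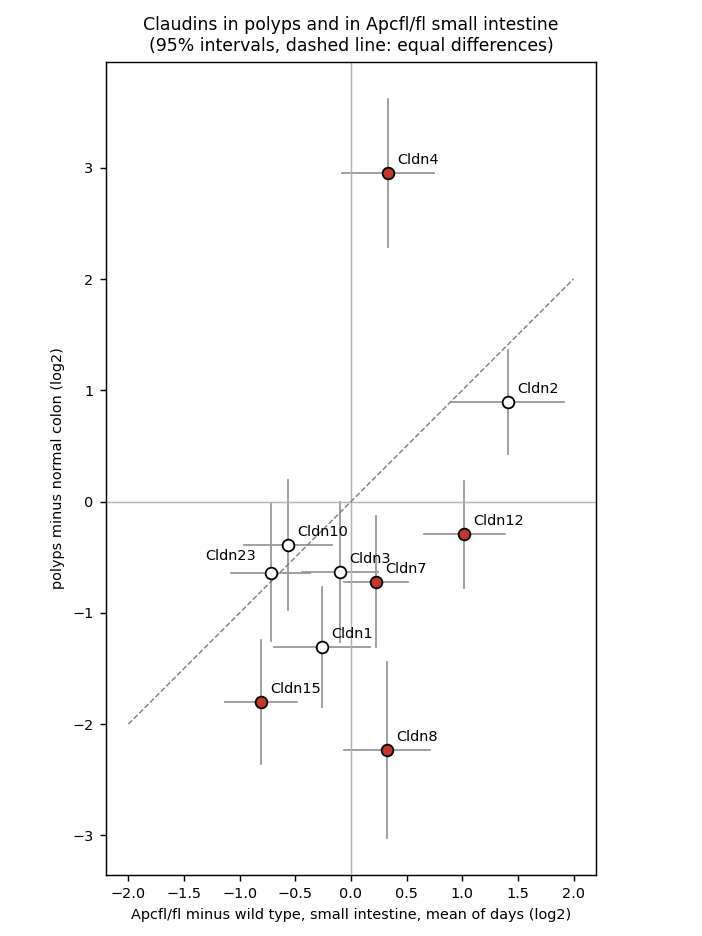
Log2 difference of polyps from normal colon (vertical) against the mean log2 difference of Apcfl/fl from wild-type small intestine (horizontal), 1 point a claudin with 95% intervals, filled where the 2 differ at an adjusted p under 0.05. Cldn4 (2.95 against 0.34) and Cldn8 (-2.23 against 0.33) lay farthest from the dashed line of equal differences. Cldn8 was dim in the small intestine, where a decrease could hardly have been seen.

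Normal colon and wild-type small intestine differed for 5 of 10 claudins, with 3 higher in colon (Cldn1, Cldn8 and Cldn12; 12.2% of all genes were called higher) and 2 lower (Cldn4 and Cldn15; 11.3%). These colon arrays also serve in the polyp comparison, and the wild-type arrays in the Apc comparison. The mice differ in Apc genotype and in β-naphthoflavone as well as in tissue. Cldn15 averaged 488 ± 123 in normal colon (SD, n = 3) and 2710 in wild-type small intestine, a difference of -2.44 ± 0.21 (SE, adjusted p = 5.76e-09, limma), and its 8 group means fell into the order wild-type days 3 and 4, Apcfl/fl day 3 and wild-type day 5 (which overlapped), then Apcfl/fl day 4, Apcfl/fl day 5, normal colon and polyps, each apart from the next. Cldn12 was higher in normal colon by 0.91 ± 0.23 (adjusted p = 0.00515). Its second probe set gave a smaller difference with overlapping groups, barely under the threshold (0.48 ± 0.17, adjusted p = 0.0499). Cldn4 was lower by -0.96 ± 0.28 (adjusted p = 0.0169), but not called without normal colon replicate 1 (-0.72, adjusted p = 0.13). The Cldn1 difference of 0.79 ± 0.28 (adjusted p = 0.0442) lay at dim signals and was lost in 7 of the 12 fits that left out 1 array (adjusted p from 0.055 to 0.174). That call was also lost with quantile normalization (0.0547), on the deposited scores (0.102), with offsets of 1 (0.0849) and 64 (0.0708), and for the mean of the probe sets (0.111). The second Cldn1 probe set did not show the difference (0.006 ± 0.28, adjusted p = 0.991). Cldn2 (0.15 ± 0.31), Cldn3, Cldn7, Cldn10 and Cldn23 were not called. The Cldn2 group means ran from Apcfl/fl day 5 through Apcfl/fl day 4 to polyps, each range apart from the next, and then through Apcfl/fl day 3, wild-type days 5 and 4, normal colon and wild-type day 3, where all neighbours overlapped.

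Other tight junction genes were followed by 3 lists. Of 7 measured other claudins (18 listed), 0 were called higher, and 2, 2 and 1 were lower in Apcfl/fl mice at days 3, 4 and 5, where 7.35%, 9.86% and 12.9% of all genes were called lower. At day 4 these were Cldn5, the claudin of blood vessels (-0.65 ± 0.20, SE, adjusted p = 0.0293, limma), and Cldn18, that of stomach and lung (-0.60 ± 0.18, adjusted p = 0.0269). Averaged over days 4 of 7 were lower, against 24.5% of all genes, with Cldn22 (-0.52 ± 0.12, adjusted p = 0.00119), Cldn5 (-0.48 ± 0.12, adjusted p = 0.00213) and Cldn18 (-0.43 ± 0.11, adjusted p = 0.00283) the most, and in polyps 0 of 7 were called by limma. Many of these signals lie near background. At days 3, 4 and 5, 3, 4 and 4 of the 7 were dim on every Apcfl/fl array, and 2, 2 and 3 on every wild-type array. Cldn18 averaged 34 in Apcfl/fl mice and 51.7 in wild-type mice, and Cldn22 averaged 54.8 in Apcfl/fl mice and 86.7 in wild-type mice. Of 14 tight junction membrane proteins, 0, 2 and 4 were higher at days 3, 4 and 5 (10.8%, 14.9% and 20.5% of all genes) and 1 was lower on each day (7.35%, 9.86% and 12.9%), which is near those shares or below them. Ildr1, an angulin of the corners between cells, had 43.9 at day 4 in Apcfl/fl mice and 6.77 in wild-type mice, on average, a difference of 1.39 ± 0.31 (adjusted p = 0.00471) that rests on dim signals, and the related Lsr had 1470 in Apcfl/fl mice and 905 in wild-type mice (0.70 ± 0.24, adjusted p = 0.0437). Jam2, an adhesion molecule also made by endothelium, was lower at day 4 (-0.85 ± 0.24, adjusted p = 0.0182). Averaged over days, 4 of the 14 were higher and 4 lower (29.2% and 24.5% of all genes). Ildr1 gave 0.98 ± 0.18 (adjusted p = 0.000196, at mean signals of 41.4 in Apcfl/fl mice and 11.1 in wild-type mice), Marveld2 (tricellulin) rose by 0.60 ± 0.12 (adjusted p = 0.000366) and Ocln (occludin) by 0.54 ± 0.14 (adjusted p = 0.00391), and Crb3, a polarity protein of the apical membrane, fell by 0.65 ± 0.12 (adjusted p = 0.000244). Jam2 (-0.64 ± 0.14, adjusted p = 0.00094) and Ildr2, the remaining angulin (-0.61 ± 0.19, adjusted p = 0.0127), were lower as well.

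Of 18 scaffold genes, 3, 4 and 5 were higher and 1 lower on each of days 3, 4 and 5, not far from the shares of all genes given for the membrane proteins. Amot, a partner of the junctional polarity complex, averaged 436 in Apcfl/fl mice and 200 in wild-type mice at day 4 (1.06 ± 0.22, adjusted p = 0.00289, limma), and Prkci, the atypical protein kinase C of the polarity complex, 1300 in Apcfl/fl mice and 612 in wild-type mice (1.07 ± 0.25, adjusted p = 0.00711). Sympk, a protein of junctions and of RNA processing, gave 0.88 ± 0.25 (adjusted p = 0.0194). Amotl1, a relative of Amot, was lower (-0.67 ± 0.21, adjusted p = 0.0293). Averaged over days, 5 of 18 scaffolds were higher (29.2% of all genes), led by Prkci (1.19 ± 0.15, adjusted p = 4.87e-06), Amot (1.10 ± 0.13, adjusted p = 2.11e-06) and Ybx3, a DNA- and RNA-binding partner of ZO-1 (0.69 ± 0.14, adjusted p = 0.000439). The 2 lower scaffolds (24.5% of all genes) were Amotl1 (-0.71 ± 0.12, adjusted p = 0.000104) and Mpdz, a protein of many PDZ domains (-0.53 ± 0.13, adjusted p = 0.00238). In polyps, where 7.45% of all genes were called higher and 9.11% lower, 2 scaffolds were higher, Amot (1.53 ± 0.25, adjusted p = 0.00321) and Sympk (0.91 ± 0.23, adjusted p = 0.0264), and Magi1 was lower (-1.35 ± 0.26, adjusted p = 0.00763). Ildr1 was the membrane protein called in polyps, at 93.9 in polyps and 298 in normal colon (-1.53 ± 0.27, adjusted p = 0.00464). Its small intestinal group means ran from 2.79 to 73.1, mostly dim, so that its change there was not set against that in polyps. The medians of the scaffold and membrane lists lay between -0.20 and 0.45 in these comparisons.

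**Figure D5:**
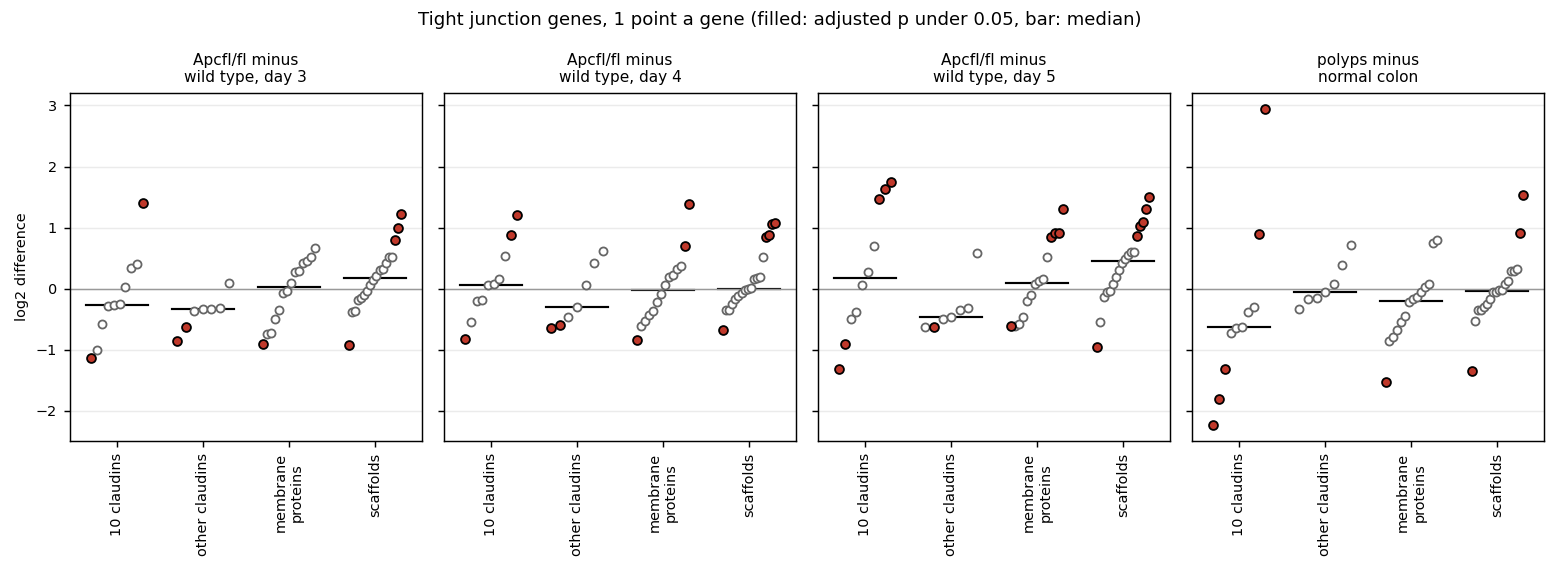
Log2 differences (vertical) of the 10 claudins, 7 other claudins, 14 tight junction membrane proteins and 18 scaffolds in 4 comparisons, 1 point a gene, filled where the adjusted p was under 0.05, with a bar at the median. In polyps the 10 claudins spread from -2.23 to 2.95, and the median of the scaffolds stood at -0.04.

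The genes most like each claudin were found by Pearson's r of log2 values over the 24 arrays among 13860 genes, as a description over samples that share tissue and genotype. Cldn2 was most like Pes1 (r = 0.936), Nol11 (0.93) and Bms1 (0.927), which serve in ribosome assembly, with r from 0.934 to 0.97 over the 18 small intestinal arrays alone and 0.848, 0.923 and 0.437 over the 6 colonic arrays. Cldn15 was most like Tm6sf2 (0.988), which acts in lipid export, Slc5a1 (0.985) and Cgref1 (0.981), with r from 0.926 to 0.948 in the small intestine and 0.95 to 0.984 over the 6 colonic arrays. Cldn7 was most like the mitochondrial genes Atp5g3 (0.938), Cox7a2 (0.938) and Uqcrb (0.931). Cldn12 was most like Pawr (0.91), Tbl1x (0.893) and Man1a2 (0.888), with r from 0.92 to 0.935 in the small intestine but 0.551, -0.0772 and 0.644 over the colonic arrays. Cldn8 was most like Far1 (0.974), Thbs4 (0.97) and Anxa3 (0.96), but the r of Thbs4 was 0.156 within the small intestine, where Cldn8 is dim. The likest genes of Cldn4 were Adamts4 (0.866), Pdgfrl (0.851) and Chst11 (0.85), with r from 0.618 to 0.746 in the small intestine, of Cldn3 Higd2a (0.841), Mpc1 and Smarcc2, of Cldn23 Krt78 (0.819), Papss1 and Lsp1, of Cldn10 Jam2 (0.804), Nrp2 and Stc2, and of Cldn1 Saysd1 (0.769), Mest and Eya3. Between claudins, Cldn2 and Cldn12 had the highest r (0.728) and Cldn8 and Cldn15 the lowest (-0.761) over the 24 arrays. Over the 18 small intestinal arrays these were 0.814 and -0.44, the latter at dim Cldn8 signals. In polyps Cldn8 and Cldn15 were both lower.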

How the data were processed

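RNA of 24 samples was measured on Affymetrix MOE430_2 arrays, 3 arrays in each of 8 groups. The deposited values are standardized scores: the authors' table holds, per array, the natural log signal minus the array mean, divided by its SD, as its values show. Which software summarised the probes was not given in the labels or methods. Linear signal was recovered from the scores, since signals fall on steps of 0.1 above a floor of 1, and was scaled to a geometric mean of 100 (69.1 to 178 before scaling). Arrays carry no read depth or detection call, so the 3 arrays a group limit the precision, and signals under 50 are called dim.

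Log2(scaled signal + 16) of 35066 non-control probe sets was fitted with limma 3.58.1 in R 4.3.3 (lmFit, eBayes; two-sided; Benjamini-Hochberg over all probe sets, threshold 0.05). The small intestinal comparisons used 18 arrays, polyps against normal colon used 6, and comparisons across tissues used 24. A gene is represented by its brightest probe set. The fit was tested on simulated data. Genotypes were also permuted within days in an exact two-sided test, since 3 arrays against 3 alone cannot give p below 0.1. Where labels do not tell animals apart, p-values measure only the spread between arrays, which may be technical: the Apcfl/fl arrays of day 4 carry only numbers.

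The members and lists were chosen with earlier results of these data known. Text names all claudin probe sets; from each other tight junction list up to 3 increases and 3 decreases past the threshold at day 4, for the mean of days and in polyps; and the 3 genes most correlated with each claudin among genes reaching 50 on at least 3 arrays. Alternatives were quantile normalization, median scaling, the deposited scores, offsets of 1 and 64, array weights, other probe set rules and sample sets, and leaving out each array. Leaving out the 2 arrays with pancreatic transcripts was added after seeing the data. A second table with the same values was not used.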

Additional observations from a re-analysis of the deposited data

Results flagged for a closer look

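The polyp difference and the mean Apc effect of the small intestine differed, by a limma test of the difference itself, for 5 claudins. Cldn4 was higher in polyps by 2.62 on the log2 scale beyond its small intestinal effect (2.95 in polyps and 0.34 in Apcfl/fl mice). Cldn8 gave -2.56 (-2.23 in polyps and 0.33 in Apcfl/fl mice, at dim small intestinal signals). Cldn12 gave -1.31, with -0.30 in polyps and 1.02 in Apcfl/fl mice, while its second probe set had 0.19 in polyps, and neither polyp difference was called. Cldn15 gave -0.996, with a decrease in both models. Cldn7 gave -0.944, with a call in neither model alone.

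Cldn4 lay on opposite sides of wild type at days 3 and 5, with all 3 Apcfl/fl arrays below the wild-type arrays at day 3 and all 3 above them at day 5. The day 3 difference was not called, however (-0.28 ± 0.34, limma adjusted p = 0.614). The log2 effect at day 5 exceeded that at day 3 by 1.75, and this difference did not pass the test (limma, adjusted p = 0.0911). The part of tissue make-up in these differences was not tested.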

How the results depend on the processing

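Of 100 single claudin results, 42 were called in some setting. For these, settings other than leaving out an array kept the direction and the side of the threshold 399 times, lost a call 38 times, gained a call 11 times and turned the direction 0 times. Leaving out 1 array gave 434, 42, 9 and 1. Of the 58 results with no call in any setting, 27 changed sign in some setting. The number of claudins called at day 3 was 2, and 1 on the deposited scores, with array weights or with only the 6 arrays of the day (1 to 2 leaving out an array). At day 4 it was 3, and 1 on the deposited scores or with an offset of 1, 0 without the arrays with pancreatic transcripts (an alternative chosen after seeing the data) and 0 to 1 leaving out an array. At day 5 it was 5, and 3 to 6 leaving out an array. In polyps it was 5, and 8 with array weights. For the polyp effect minus the mean Apc effect it was 5, and 3 without the 6 arrays of day 4, and 3 to 6 leaving out an array. The difference of Cldn3, Apcfl/fl against wild type, mean of days, was -0.10 and not called, passed on the deposited scores (-0.49), and ran from -0.2329 to 0.003254 leaving out an array, the positive value coming without Apcfl/fl day 5 replicate 1. The cause was not tested. Dim signal limits Cldn1, Cldn10 and, in the small intestine, Cldn8, Ildr1 and several of the other claudins, Cldn18 among them. No paired analysis was possible because the replicate numbers only name arrays and the labels give a different animal, or none, for each array, although the study describes polyp and normal colonic tissue as paired.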
